A study of Mus musculus with 18 samples.

Results

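The 26S proteasome is the protease that degrades ubiquitin-tagged proteins, and the genes described here are those of its constitutive 20S core, its 19S cap and the chaperones and activators that build or cap the core. The set is defined by gene names, with no measured value in its definition, but it was proposed with earlier results of these data known. It holds 40 genes: 7 subunits of the alpha ring, 7 of the beta ring, 6 ATPases and 12 non-ATPases of the 19S cap, 6 assembly chaperones and 2 other activators. All 40 had a probe among the 17721 genes tested on the arrays. Liver RNA of female mice, 6 weeks of age, was measured on 18 single-colour arrays, in 6 groups of 3. The Nrf1 CKO livers were Nrf1(dN/-)::Alb-Cre and their controls Nrf1(dN/+), both of mixed strain, so that the controls also carried 1 dN allele. The Nrf2 KO livers were Nrf2(-/-) and their controls Nrf2(+/+), both C57BL/6. The Keap1 KD livers were Keap1(Kd/-), with a knockdown allele over a null allele, and their controls Keap1(Kd/+), both of mixed strain, so that the knockdown allele was present in the controls as well. In Alb-Cre mice the albumin promoter drives Cre recombinase, and as this promoter works in hepatocytes, the other cells of the liver are not its target. The question addressed by the design is how loss of each factor changed liver gene expression, and each mutant is set against the control of its own line.

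In the 20S core, rings of alpha subunits gate a chamber formed by rings of beta subunits, some of which carry the proteolytic sites, while the 19S cap receives ubiquitinated proteins, unfolds them with a ring of ATPases and feeds them into the core. NRF1 (gene Nfe2l1) is a transcription factor held at the endoplasmic reticulum, which is known to raise transcription of proteasome genes when proteasome activity is short. NRF2 (gene Nfe2l2) is a related factor that KEAP1 marks for degradation by the proteasome, so that NRF2 accumulates where KEAP1 is lost and activates antioxidant and detoxification genes.

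Levels are log2 of the processed signal relative to the 75th percentile of the same array, and a difference of -1 on this scale is a level at 50% of the control. Between 21668 and 28213 of the 43379 spots that were not controls were well above background on an array, and 0 spots were saturated. Of the 40 proteasome genes, 39 were well above background on all 18 arrays, and Psmg1 was on the 17 arrays with a value (1 spot, on the third Keap1 KD array, was an outlier and was left out). The labels do not say that the 3 arrays of a group came from separate mice, so p-values cover only how far these samples lie apart, and that spread may be technical. The targeted genes were checked first. Nfe2l1 was at 3.93, 3.65 and 3.59 on the Nrf1 Control arrays and was not well above background on any Nrf1 CKO array, a level at least 469-fold lower, taking for each CKO array the lowest signal that was well above background (limma adjusted p = 5.88e-15). Nfe2l2 was at 3.30, 3.52 and 3.13 on the Nrf2 Control arrays and at -5.90, -5.59 and -3.16 on the Nrf2 KO arrays, of which 1 was well above background. Keap1 was at 4.47, 4.81 and 3.28 in the Keap1 controls and at 1.75, 1.79 and 1.87 in Keap1 KD, which is 19.1% of the control mean. The probes of the targeted genes therefore followed the labels. These are levels in whole liver, and in which of its cells Nfe2l1 was lost was not tested. In the other lines these 3 genes were not called. In Nrf1 CKO the log2 change of Nfe2l2 was 0.68 ± 0.48 (SE) and of Keap1 -0.71 ± 0.31. Nfe2l2 was at 3.58, 3.52 and 3.70 on the Nrf1 Control arrays and at 4.06, 4.32 and 4.45 on the Nrf1 CKO arrays. Keap1 was at 3.79, 3.63 and 3.43 against 2.98, 2.92 and 2.81. For both genes the groups lay apart. The SEs pool all 6 groups, with the wide spread of Nfe2l2 in Nrf2 KO and of Keap1 in the Keap1 controls. The missing calls therefore do not show that these levels were unchanged in Nrf1 CKO. In Nrf2 KO the log2 change of Nfe2l1 was 0.00 ± 0.17 and of Keap1 0.11 ± 0.31. In Keap1 KD that of Nfe2l1 was 0.18 ± 0.17 and of Nfe2l2 -0.19 ± 0.48.

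In Nrf1 CKO livers the proteasome genes were lower as a group, relative to the 75th percentile of each array. That percentile of the processed signal was itself higher in the mutant. It was 193.8, 211.3 and 251.6 on the Nrf1 Control arrays and 305.5, 348.1 and 403.1 on the Nrf1 CKO arrays. The part of this gap in the proteasome result was not tested. Of the 40, 25 fell (limma adjusted p under 0.05 over all genes tested), where 10.9% of all genes tested fell, and limma called 0 higher (1, Psmd10, at an unadjusted p under 0.05), where 7.99% of all genes rose. The change was below 0 for 37 of the 40 (34 to 38 under the other scalings), with a median of -0.59 against -0.09 over all genes tested. On 32 genes all 3 Nrf1 CKO arrays lay below all 3 control arrays (28.1% of all genes tested), and on 1 gene, Psmd8, all lay above (15.3% of all genes tested). The largest falls, in Pomp, Psmc6, Psma5 and Psmd12, left between 52.1% and 52.6% of the control level. By role, 5 of 7 alpha subunits fell (median change -0.55), as did 5 of 7 beta subunits (-0.60), 4 of 6 ATPases (-0.72), 7 of 12 non-ATPases (-0.62), 3 of 6 assembly chaperones (-0.35) and 1 of 2 other activators (-0.47). The median was -0.59 over the 14 core subunits and -0.64 over the 18 cap subunits, a difference that was not tested.

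**Figure D1:**
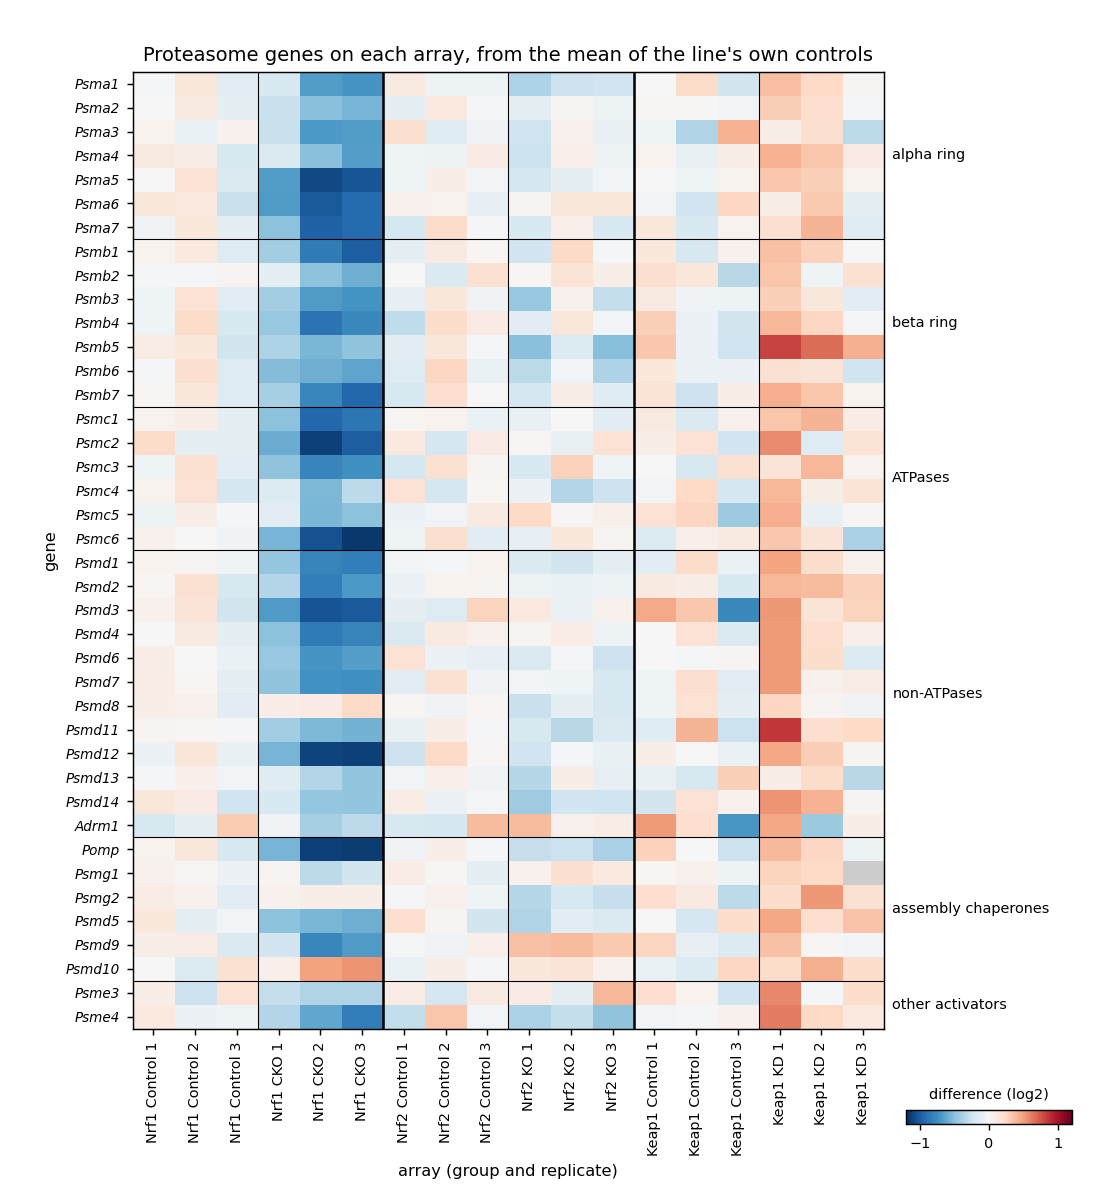
Each row is a proteasome gene and each column an array; the colour is the difference, on the log2 scale, of that array's level from the mean of the 3 control arrays of the same line (blue lower, red higher, grey no value). The 3 Nrf1 CKO columns are blue for all but a few genes, with array medians of -0.41, -0.69 and -0.69, and the first Keap1 KD column is red throughout.

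Array by array, the median difference of the 40 genes from the Nrf1 Control mean was -0.41, -0.69 and -0.69 on the 3 Nrf1 CKO arrays, and 0.03, 0.09 and -0.12 on the controls. The first CKO array was thus the least changed, with 36 of 40 genes below the control mean against 37 on each of the others. In whole liver, fewer cells of a type and less RNA per cell cannot be told apart. Among the cell markers measured on the same arrays, 3 of 7 hepatocyte genes fell in Nrf1 CKO (Hpd, Tdo2 and Cebpa, median of the list -0.48). Of all genes tested 10.9% fell and 7.99% rose, which holds for the other markers too. The summed level of the 7 hepatocyte genes, relative to the array's 75th percentile, ranged from 1822 to 2056 on the control arrays and from 1161 to 1644 on the CKO arrays. All sums here add unlogged levels, so the brightest gene of a list weighs most, and it need not be a called one. For hepatocytes it was Alb (control mean 10.26), not called (-0.48 ± 0.18, limma adjusted p = 0.0781). For stellate cells it was Dcn (control mean 6.13), also not called (0.42 ± 0.19, limma adjusted p = 0.126). Of 8 stellate cell genes 7 rose (median 1.0, sums of 77.9 to 103 against 119 to 166), and of 6 genes of proliferating cells 6 rose (median 2.16, sums of 2.36 to 4.01 against 12.7 to 15.5). Of 7 macrophage genes 2 rose (Cd5l and Marco, sums of 95.5 to 183 against 181 to 391). Of 4 erythroid genes 1 fell (Klf1, sums of 236 to 262 against 122 to 134), and of 6 genes of sinusoidal endothelium 1 fell (Lyve1, -2.42, sums of 43.7 to 52.3 against 31.6 to 51.6). Of 5 cholangiocyte genes limma called 0 (1 at an unadjusted p under 0.05), but all 5 were above 0 with a median of 0.67 (sums of 9.34 to 13.3 against 12.6 to 38.7). Of 6 lymphocyte genes 1 rose (Cd8a), of 2 pancreas genes 1 (Cela1), and of 3 neutrophil genes limma called 0 (0 also at an unadjusted p under 0.05). The markers of hepatocytes, stellate cells, macrophages and proliferating cells were well above background on all arrays of both groups, and the part of these differences in the proteasome result was not tested.

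The antioxidant response element, to which NRF1 and NRF2 bind with small MAF proteins, has the core TGACNNNGC. Promoters from RefSeq (build GRCm38.p6, 250 bases before to 50 after each start) were found for 33 of the 40 genes, with 35 starts; Psmb1, Psmb2, Psmb7, Psmc3, Psmd3, Psmd7 and Psmg2 had no entry. This core, read on both strands, was in 7 of the 35 promoters, and in 12.39% of all 32851 promoters of the same length. Those 7 belong to Adrm1, Psmb5, Psmb6, Psmc6, Psmd12, Psmd9 and Psme4. The looser letters TGANNNNGC, which contain the former, were in 20 of the 35 and in 41.34% of all promoters. The 250 bases before the start are shown for the 4 genes that fell in Nrf1 CKO and have the core there, for Pomp, the gene with the largest fall and no match, and for Psmb5, which was added after its values were seen as the 1 gene that rose in Keap1 KD. They are read 5′ to 3′ on the strand of the gene, and the capitals mark the core on either strand. The intervals are chr14:45329574-45329823 (plus strand) for Psmc6, chr11:107479278-107479527 (plus) for Psmd12, chr11:70525107-70525356 (plus) for Psmb6, chr5:123227940-123228189 (plus) for Psmd9, chr5:147860378-147860627 (plus) for Pomp and chr14:54617996-54618245 (minus) for Psmb5.
Psmc6: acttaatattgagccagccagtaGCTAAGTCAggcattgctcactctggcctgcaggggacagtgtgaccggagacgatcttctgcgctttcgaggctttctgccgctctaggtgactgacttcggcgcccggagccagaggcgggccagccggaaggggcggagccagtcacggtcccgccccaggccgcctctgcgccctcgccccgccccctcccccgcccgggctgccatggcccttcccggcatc
Psmd12: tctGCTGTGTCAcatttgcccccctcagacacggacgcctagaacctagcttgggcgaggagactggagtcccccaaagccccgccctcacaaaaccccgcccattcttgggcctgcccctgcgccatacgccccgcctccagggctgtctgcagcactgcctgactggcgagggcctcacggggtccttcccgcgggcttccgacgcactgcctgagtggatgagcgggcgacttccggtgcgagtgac
Psmb6: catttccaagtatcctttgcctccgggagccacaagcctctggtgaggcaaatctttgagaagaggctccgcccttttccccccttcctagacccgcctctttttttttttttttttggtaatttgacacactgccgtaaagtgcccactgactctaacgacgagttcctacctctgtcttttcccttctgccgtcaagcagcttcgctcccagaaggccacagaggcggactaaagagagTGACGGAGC
Psmd9: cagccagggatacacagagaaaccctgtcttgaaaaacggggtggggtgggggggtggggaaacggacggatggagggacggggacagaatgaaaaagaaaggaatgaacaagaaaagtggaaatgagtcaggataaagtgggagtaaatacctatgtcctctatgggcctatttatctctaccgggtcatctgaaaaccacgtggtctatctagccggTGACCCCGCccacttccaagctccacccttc
Pomp: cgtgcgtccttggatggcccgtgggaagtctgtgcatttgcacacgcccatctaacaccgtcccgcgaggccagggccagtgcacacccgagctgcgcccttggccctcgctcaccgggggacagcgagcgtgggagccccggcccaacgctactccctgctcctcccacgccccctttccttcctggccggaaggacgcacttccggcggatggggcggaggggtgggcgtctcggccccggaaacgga
Psmb5: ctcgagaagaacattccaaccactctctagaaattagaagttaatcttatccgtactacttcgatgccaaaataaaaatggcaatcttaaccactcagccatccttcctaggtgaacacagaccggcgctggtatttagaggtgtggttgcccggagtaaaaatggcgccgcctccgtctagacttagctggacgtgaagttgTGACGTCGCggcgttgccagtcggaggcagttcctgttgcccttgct
The core began 9 bases before the start in Psmb6, 31 before in Psmd9 and 47 before in Psmb5, but 227 before in Psmc6 and 247 before in Psmd12, at the edge of the window. In Psme4 it began 7 bases before the start and ran across it. Psmc6 and Psmd12, with the core, and Pomp, without it, changed by -0.93, -0.93 and -0.94. Adrm1, which has the core, was not called (-0.25 ± 0.29), and its dimmer probe gave -0.55 ± 0.25 (limma adjusted p = 0.135). A match to these letters is a description of the sequence and no evidence of binding.

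Of the alpha ring, whose subunits form the gate of the core, Psma5, Psma6 and Psma7 had the largest falls. Psma5 was at 6.26, 6.43 and 6.09 on the Nrf1 Control arrays and at 5.59, 5.18 and 5.23 on the Nrf1 CKO arrays. The groups lay apart, and the change of -0.93 ± 0.14 (limma SE, adjusted p = 0.00141) was the one with the smallest adjusted p of the 40 genes. Psma6 went from 5.43, 5.41 and 5.02 to 4.61, 4.28 and 4.36, again without overlap (-0.87 ± 0.17, adjusted p = 0.00416). Psma7 was at 6.33, 6.50 and 6.26 in controls and at 5.88, 5.40 and 5.44 in CKO livers (-0.79 ± 0.18, adjusted p = 0.00974). In all 3 genes the first CKO array was the highest of its group and still below every control. Psma1 (-0.52 ± 0.17, adjusted p = 0.0413) and Psma2 (-0.44 ± 0.13, adjusted p = 0.0311) also fell. Psma2 had the change nearest 0 in this ring, from 6.49, 6.60 and 6.38 to 6.22, 5.99 and 5.93, and the fall was absent after quantile normalization, where the change was 0.02. Psma3 (-0.55 ± 0.20, adjusted p = 0.066) and Psma4 (-0.44 ± 0.15, adjusted p = 0.0559) missed the threshold, although a second probe of Psma4 passed it (-0.50 ± 0.15, adjusted p = 0.033).

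In the beta ring, which holds the proteolytic sites, Psmb1 changed most. Its level was 5.16, 5.24 and 4.97 in the controls and 4.70, 4.28 and 4.13 in the CKO livers, groups that do not overlap (-0.75 ± 0.18, adjusted p = 0.0105). Psmb7, the trypsin-like subunit, was at 4.81, 4.92 and 4.64 against 4.39, 4.01 and 3.85 (-0.71 ± 0.18, adjusted p = 0.0154). Psmb4, which has no proteolytic site, was at 6.86, 7.13 and 6.73 against 6.46, 6.02 and 6.14 (-0.70 ± 0.19, adjusted p = 0.0216). All CKO arrays of both genes were below all controls. Psmb3 fell by 0.60 and Psmb6, the caspase-like subunit, by 0.58. For Psmb6 the 3 CKO arrays were close together, at 6.17, 6.10 and 6.06, below controls of 6.67, 6.88 and 6.54. Psmb5, the chymotrypsin-like subunit that proteasome inhibitors bind, did not pass the test (-0.47 ± 0.17, adjusted p = 0.0691): it was at 5.10, 5.14 and 4.79 in controls and at 4.64, 4.46 and 4.53 in CKO livers, with all CKO arrays lower. Psmb2 had the change nearest 0 (-0.40 ± 0.17, adjusted p = 0.116), with 1.08, 1.07 and 1.12 in controls and 0.98, 0.60 and 0.50 in CKO livers.

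The ATPases of the cap form the ring that unfolds substrates, and this list had the lowest median of the 6. Psmc6 was at 5.82, 5.77 and 5.73 on the control arrays and at 5.21, 4.72 and 4.61 on the CKO arrays. The controls were close together and the CKO arrays were all lower (-0.93 ± 0.19, adjusted p = 0.00606). Psmc2 was at 5.69, 5.35 and 5.36 against 4.87, 4.35 and 4.48 (-0.90 ± 0.20, adjusted p = 0.00797), and Psmc1 at 5.32, 5.36 and 5.16 against 4.79, 4.34 and 4.41 (-0.77 ± 0.15, adjusted p = 0.00394). Neither gene overlapped between the groups. Psmc3 fell by 0.67 (adjusted p = 0.0168). Psmc5 (-0.39 ± 0.19, adjusted p = 0.162) and Psmc4 (-0.34 ± 0.17, adjusted p = 0.169) were not called. For Psmc4, the ATPase with the change nearest 0, the controls were at 4.65, 4.78 and 4.41 and the CKO arrays at 4.45, 4.07 and 4.30, so that the groups overlap. A dimmer probe of Psmc4 gave -0.06 (limma adjusted p = 0.828).

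Of the non-ATPase subunits, Psmd12, a subunit of the lid, was at 5.67, 5.89 and 5.65 in controls and at 5.18, 4.63 and 4.62 in CKO livers. All CKO arrays lay below all controls (-0.93 ± 0.18, adjusted p = 0.00441). The probes of this gene differed in size: the brightest, used here, gave -0.93, another -0.79 (adjusted p = 0.00522) and the dimmest -0.40 (adjusted p = 0.138). Psmd3, also of the lid, was at 6.85, 6.95 and 6.58 against 6.12, 5.76 and 5.79 (-0.90 ± 0.26, adjusted p = 0.0259). Psmd4, a ubiquitin receptor, was at 4.52, 4.63 and 4.41 against 4.03, 3.67 and 3.72 (-0.72 ± 0.16, adjusted p = 0.00776). Both fell on every CKO array relative to every control. The large scaffolds of the base fell too, Psmd1 by 0.70 (adjusted p = 0.0064) and Psmd2 by 0.63 (adjusted p = 0.0103), as did the lid subunits Psmd7 by 0.65 (adjusted p = 0.0121) and Psmd6 by 0.61 (adjusted p = 0.0186). The 5 not called were Psmd11 (-0.52 ± 0.19), Psmd14, the deubiquitinase of the lid (-0.37 ± 0.17), Psmd13 (-0.33 ± 0.17), the ubiquitin receptor Adrm1 (-0.25 ± 0.29) and Psmd8 (0.14 ± 0.13). For Psmd11 the controls were at 5.65, 5.63 and 5.60 and the CKO livers all lower, at 5.20, 5.08 and 5.05. Its SE pools all 6 groups, with SDs of 0.36 and 0.37 in the Keap1 line. It was called in the fit of the Nrf1 line's arrays alone, with an intensity trend and with array weights, and under no other alternative. Psmd8 was the exception among the cap subunits: it was at 3.49, 3.47 and 3.29 in controls and at 3.50, 3.52 and 3.65 in CKO livers. Its lowest CKO array was only just above the highest control, and the change did not pass the test (adjusted p = 0.467).

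**Figure D2:**
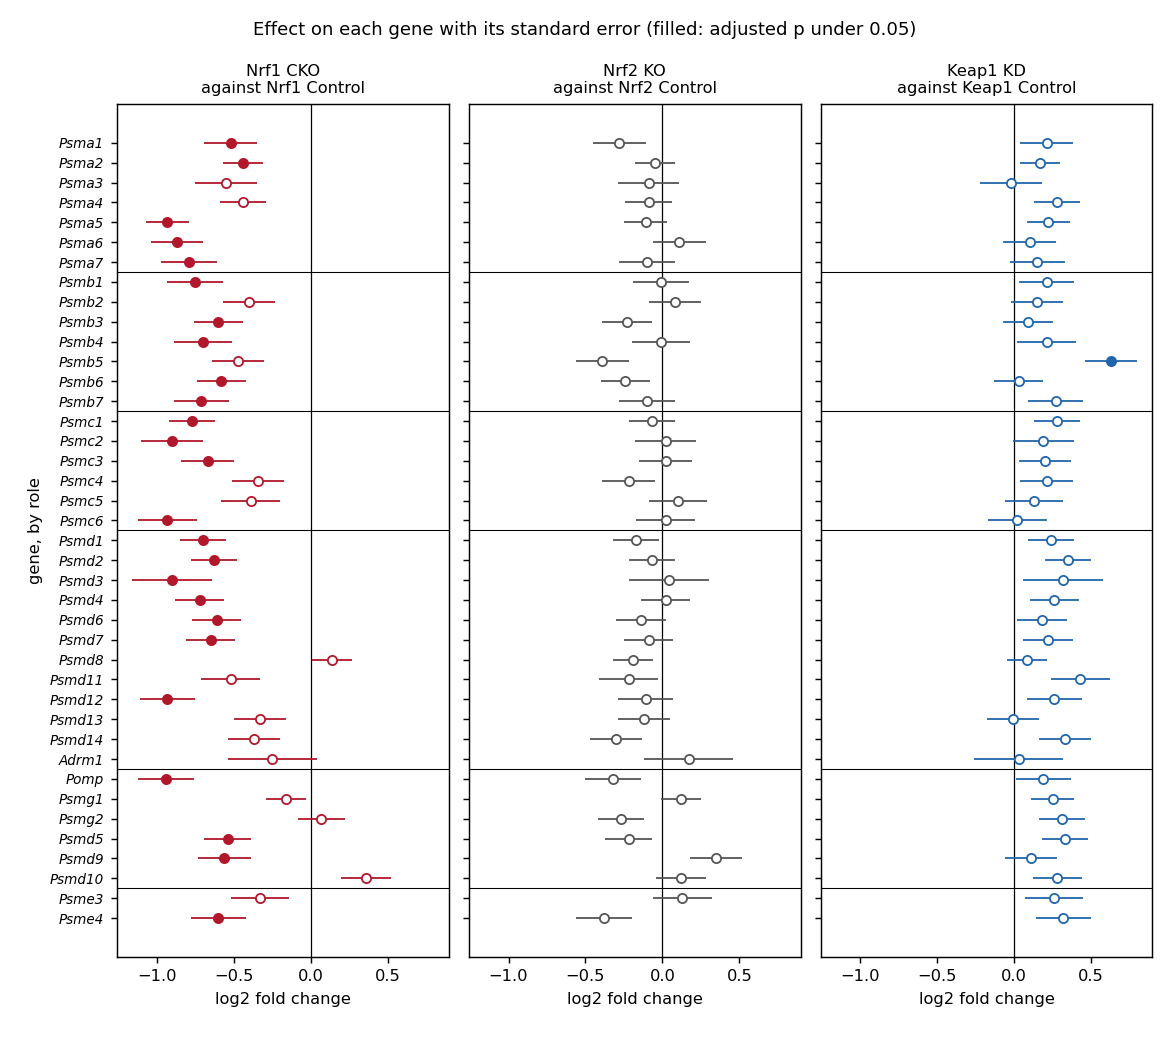
Log2 fold change of each proteasome gene with its limma standard error in the 3 comparisons, grouped from top to bottom into alpha ring, beta ring, ATPases, non-ATPases, assembly chaperones and other activators. Filled points passed an adjusted p of 0.05: 25 genes on the left, 0 in the middle and 1, Psmb5, on the right.

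The assembly chaperones were divided. Pomp, which assists the joining of beta subunits to the core, had the largest fall of the 40 genes, from 7.75, 7.85 and 7.53 in controls to 7.15, 6.59 and 6.57 in CKO livers (-0.94 ± 0.18, adjusted p = 0.00461). The lowest control was above the highest CKO array. Psmd5 and Psmd9, chaperones of the base of the cap, were lower as well. Psmd9 was at 2.46, 2.48 and 2.22 against 2.16, 1.61 and 1.71 (-0.56 ± 0.17, adjusted p = 0.0331), and Psmd5 at 2.66, 2.42 and 2.50 against 2.04, 1.98 and 1.94 (-0.54 ± 0.15, adjusted p = 0.022). For Psmd9 the highest CKO array was close to the lowest control. The chaperones of the alpha ring, Psmg1 (-0.16 ± 0.13) and Psmg2 (0.07 ± 0.15), were not called. Psmg2, the chaperone with the change nearest 0, was at 2.17, 2.13 and 1.94 against 2.13, 2.16 and 2.16, and its probes gave changes of opposite sign (0.07 and -0.03). Psmd10, which also assists the base and is known as gankyrin, went the other way: 0.18, 0.02 and 0.36 in controls and 0.24, 0.66 and 0.72 in CKO livers. The groups overlap, and the change of 0.36 ± 0.16 had an unadjusted p of 0.0386 but an adjusted p of 0.121. Of the other activators, Psme4 fell from 5.91, 5.72 and 5.74 to 5.44, 5.17 and 4.96 (-0.60 ± 0.18, adjusted p = 0.0307). Its dimmer probes were lower but missed the limma threshold (-0.52, adjusted p = 0.0528, and -0.39, adjusted p = 0.155). Psme3, a cap of the core found in nuclei, was at 0.36, 0.04 and 0.46 against -0.00, -0.07 and -0.07 (-0.33 ± 0.19, adjusted p = 0.225).

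**Figure D3:**
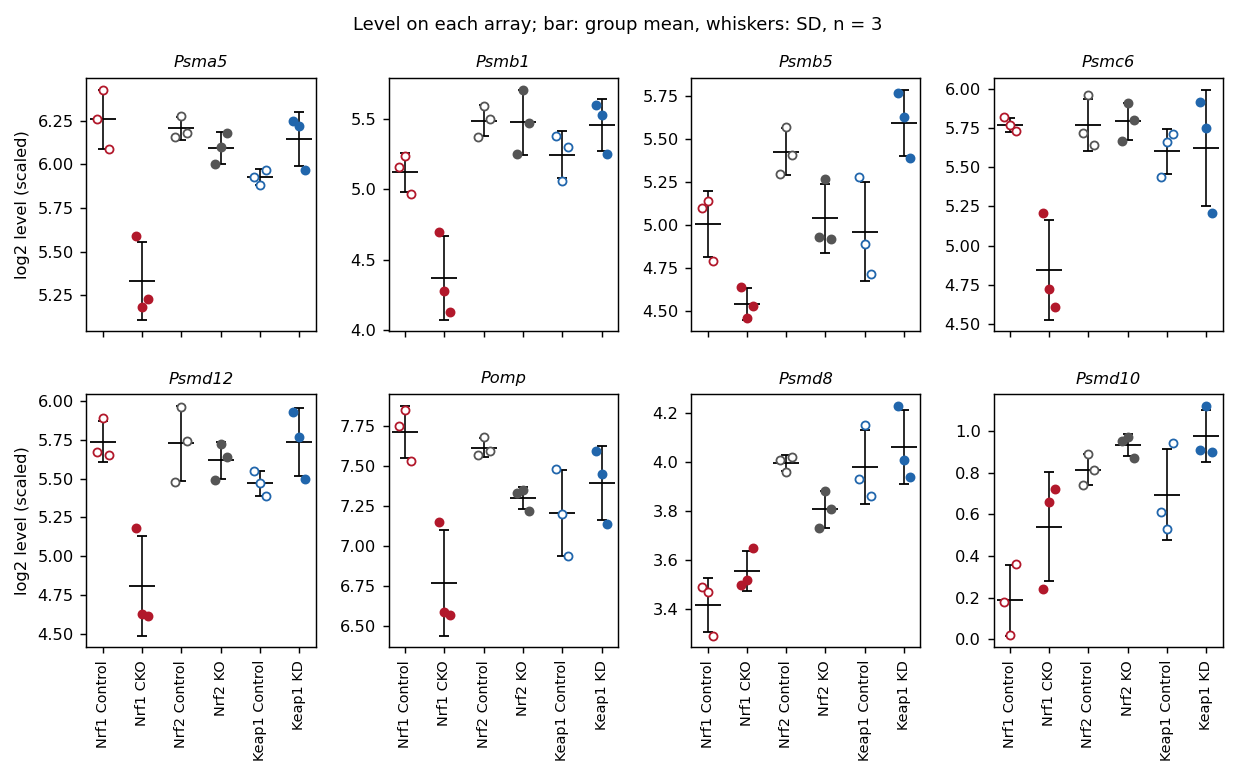
Log2 level, relative to the 75th percentile of the array, of 8 proteasome genes on each array (points, open for controls and filled for mutants), with the group mean and SD (n = 3); each panel has its own axis, which does not start at 0. Psma5, Psmb1, Psmc6, Psmd12 and Pomp are lowest in Nrf1 CKO, Psmb5 is highest in Keap1 KD, and Psmd8 and Psmd10 are not lower in Nrf1 CKO.

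The size of the Nrf1 result depended on the arrays and the scaling. Without the third or the second CKO array 9 genes fell (2.47% and 3.26% of all genes tested). Without Nrf1 Control 1 or 2 it was 12 or 15 (3.46% and 6.12% of all genes), and after quantile normalization 11 fell (7.08% of all genes tested), with a median of -0.34. The third Nrf1 control shared a slide with the 3 CKO arrays, and within that slide the median of the 40 genes was -0.52 with 37 below 0 (-0.11 over all genes), Psma5 at -0.76, Psmc6 at -0.88, Psmd12 at -0.84 and Pomp at -0.76; with slide as a block in the fit, 0 of the 40 were called by limma (11 at an unadjusted p under 0.05) and 24 of all genes tested fell. The split of all genes also moved with the scaling, from 1416 higher and 1932 lower to 1539 and 1254 after quantile normalization.

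In Nrf2 KO livers 0 of the 40 genes were called by limma, in a comparison that called 0.0564% of all genes tested lower and 0.00564% higher. At an unadjusted p under 0.05 there were 2 genes, Psmb5 and Psme4, both lower, which is 5.0% of the 40 where 5.1% of all genes tested were lower at that threshold. The median change was -0.09, against 0.01 over all genes tested, and the array medians were -0.18, -0.00 and -0.09 against -0.05, 0.05 and -0.01 on the controls. Psmb5 was at 5.30, 5.57 and 5.41 in controls and at 4.93, 5.27 and 4.92 in KO livers. All KO arrays were lower, with a change of -0.39 ± 0.17 that did not pass the test (unadjusted p = 0.0413, adjusted p = 0.549). Psme4 was at 5.48, 6.11 and 5.75 against 5.40, 5.49 and 5.30, with overlap (-0.38 ± 0.18, adjusted p = 0.56). On 8 genes, among them Pomp (7.57, 7.68 and 7.59 against 7.33, 7.35 and 7.22), all KO arrays were below all controls, where 11.0% of all genes tested were. On 1 gene, Psmd9, they were all above (2.46, 2.43 and 2.53 against 2.82, 2.85 and 2.78), where 9.81% of all genes were. No slide and no scan date held both Nrf2 groups, so no value within a batch could be had.

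In Keap1 KD livers 1 of the 40 genes rose, where 0.948% of all genes tested rose, and limma called 0 lower (0 also at an unadjusted p under 0.05), where 4.58% of all genes fell. The gene was Psmb5, at 5.28, 4.89 and 4.72 in controls and at 5.77, 5.63 and 5.39 in Keap1 KD. The groups do not overlap, but the highest control was close to the lowest KD array. The change of 0.63 ± 0.17 is 155% of the control level and passed the test narrowly (limma adjusted p = 0.0451). The call was lost when any array of this line other than Keap1 Control 1 was left out. It was also lost with slide, scan date or replicate number as a fixed block, with array weights, with either other filter on background and in the fit of this line's arrays alone, and was kept with slide as a random block and under the other scalings. On the slide that held 1 array of each group the Psmb5 difference was 0.66. Most other genes were slightly above their controls, with no call: 38 of 40 had a change above 0, and the median was 0.21 against 0.00 over all genes tested. On 5 genes (Psma4, Psmb5, Psmd2, Psmg1 and Psme4) all KD arrays with a value were above all controls, where 5.57% of all genes were. On 0 genes were they all below, where 11.4% were. Psmg1 had no value on the third KD array, so that it is counted here on 2 KD arrays. Psmd2 was at 4.67, 4.64 and 4.38 against 4.96, 4.94 and 4.84 (0.35 ± 0.15, unadjusted p = 0.0291, adjusted p = 0.22). The KD arrays differed among themselves: the array medians were 0.39, 0.22 and 0.04, with 0, 5 and 13 genes below the control mean, so that the third KD array lay near the controls (0.02, -0.01 and -0.07). This array was the one that shared a scan date with 2 of the controls, and within that date the median of the genes was 0.08. Scaling to the array's median instead of its 75th percentile moved the median of all genes from 0.00 to 0.29 in Keap1 KD and from -0.09 to -0.20 in Nrf1 CKO, and the proteasome medians with it, to 0.51 and -0.70. The split of all genes in Keap1 KD then went from 168 higher and 811 lower to 355 and 372.

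The effects of the lines were compared directly. The effect of Nrf1 CKO was lower than that of Nrf2 KO for 3 of the 40 genes (2.57% of all genes tested), Psma5, Psma6 and Psmd9. For Psma6 the changes were -0.87 in Nrf1 CKO and 0.11 in Nrf2 KO, a difference of -0.98 ± 0.23 (adjusted p = 0.0288). Psmd9 fell in Nrf1 CKO by 0.56 and was 0.35 in Nrf2 KO, a difference of -0.91 ± 0.24 (adjusted p = 0.0402). Against Keap1 KD the effect of Nrf1 CKO was lower for 20 of the 40 (3.36% of all genes tested). The largest of these differences was in Psmd12, whose changes were -0.93 and 0.26, a difference of -1.19 ± 0.25 (adjusted p = 0.0188). Psmb5, called in neither the Nrf1 nor the Nrf2 comparison, differed by -1.10 ± 0.24 (adjusted p = 0.0215) between Nrf1 CKO and Keap1 KD. It was also the 1 gene lower in Nrf2 KO than in Keap1 KD (1.0% of all genes tested), with changes of -0.39 and 0.63 and a difference of -1.02 ± 0.24 (adjusted p = 0.0377). These counts depended on the fit and the arrays. With slide as a block 0 genes differed in any of the 3 comparisons by limma (1, 12 and 3 at an unadjusted p under 0.05). Of all genes tested, 0.0169%, 0.0282% and 0.113% were then lower. When the block was the scan date, 0, 2 and 0 did (8, 29 and 5 unadjusted), with 0.502%, 0.863% and 0.305% of all genes lower. Within a fit of only the arrays of the lines compared the counts were 8, 1 and 0 (5.32%, 0.525% and 0.547% of all genes). With slide as a random block they were 4, 20 and 1 (2.82%, 3.53% and 1% of all genes). The difference from Keap1 KD had 2 genes without the second or the third Nrf1 CKO array (0.751% and 0.604% of all genes tested). It had 3 and 10 without Nrf1 Control 1 or 2 (0.609% and 1.65% of all genes) and 7 without Keap1 KD 1 (1.59%). Without Keap1 Control 2, Keap1 Control 3 or Keap1 KD 2 it had 11, 13 and 12 (1.35%, 2.4% and 2.07% of all genes). The difference from Nrf2 KO had 0 genes without Nrf1 Control 1 or 2, Nrf1 CKO 2 or 3, Nrf2 Control 3 or any Nrf2 KO array. In these fits 0.542% to 1.35% of all genes tested were lower. It had 1 and 2 genes without Nrf2 Control 1 or 2 (1.67% and 2.13% of all genes), and 12 without the first CKO array (6.67% of all genes). The Psmb5 difference between Nrf2 KO and Keap1 KD was kept only without Nrf2 KO 2, Keap1 Control 1 or Keap1 KD 3. The Nrf2 line was C57BL/6 and the others of mixed strain, so in the differences from Nrf2 KO strain and line cannot be told apart.

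**Figure D4:**
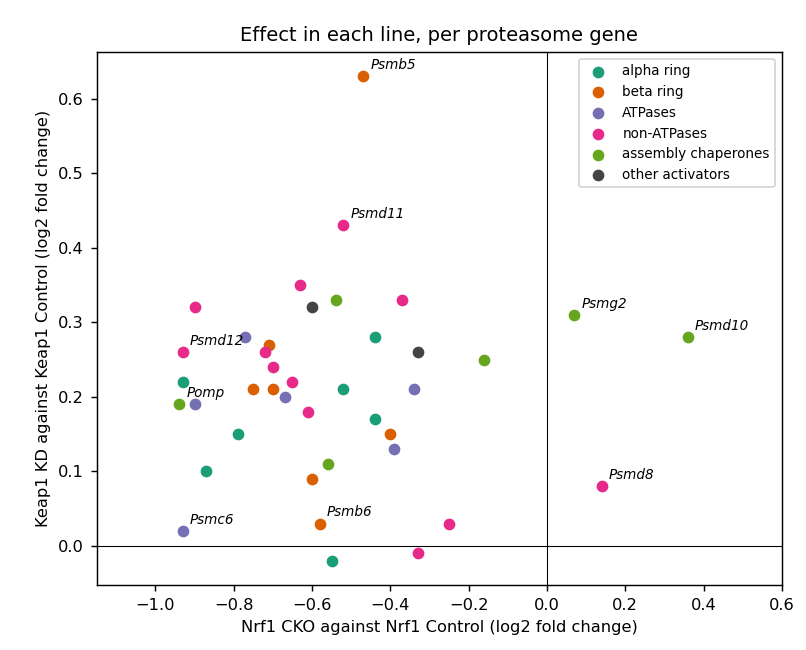
Each point is a proteasome gene, with its log2 fold change in Nrf1 CKO on the horizontal axis and in Keap1 KD on the vertical axis, coloured by role. Most genes are left of 0 and above 0, Psmb5 is the highest at -0.47 and 0.63, and Psmd10, Psmd8 and Psmg2 are the 3 to the right of 0.

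The genes also varied together within the groups. After each group's mean was taken away, the correlation between pairs of the 39 genes with a value on all 18 arrays had a median of 0.44 over 741 pairs, and 82.2% of pairs were above 0, where the median over all genes was 0.00. These points share arrays, and hence labelling and scaling. Pomp and Psma2 followed the mean of the other genes most closely (0.91 each), then Psmd12 (0.88), Psmd4 and Psmd9 (0.87 each). Psmd10 was opposite to it (-0.62), and Psmd5 (0.04) and Psme3 (0.14) were near 0.

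Genes outside the set that act with the proteasome were read in the same way, beside the 10.9% of all genes tested that fell in Nrf1 CKO and the 7.99% that rose. Of 6 genes of the immunoproteasome and its interferon-inducible cap, 0 were called by limma in Nrf1 CKO, with a median of -0.40. At an unadjusted p under 0.05, 3 were lower, where 20.5% of all genes tested were. Psmb10, the inducible counterpart of Psmb7, was at -0.57 ± 0.23 (adjusted p = 0.089). Of 12 further subunits, chaperones and bound enzymes, Ecpas, a proteasome adaptor, fell (-0.72 ± 0.19, adjusted p = 0.0166) and Zfand2a, an arsenite-inducible proteasome-associated protein, rose (0.72 ± 0.15, adjusted p = 0.00537), with a list median of -0.36. Of 8 genes that act on NRF1 itself, 3 fell: Vcp, the ATPase that extracts it from the membrane (-0.74 ± 0.18, adjusted p = 0.0117), its cofactor Nploc4 (-0.59 ± 0.18, adjusted p = 0.0359) and Ngly1, which removes its glycans (-0.54 ± 0.16, adjusted p = 0.0273). The CCT chaperonin, another complex of constitutive subunits, had 2 of 8 genes lower (Tcp1, -0.55 ± 0.16, adjusted p = 0.0306, and Cct4, -0.51 ± 0.15, adjusted p = 0.0277) and a median of -0.26. In Nrf2 KO and Keap1 KD, limma called 0 of the 34 genes of these 4 lists, with 0 and 3 at an unadjusted p under 0.05. Of all genes tested, limma called 0.0564% lower and 0.00564% higher in Nrf2 KO, and 4.58% lower and 0.948% higher in Keap1 KD.

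A list of 15 antioxidant and detoxification genes known as NRF2 targets served as a check of the lines. In Keap1 KD 12 of the 15 rose (0.948% of all genes tested), with a median of 1.43, led by Gsta1 (3.49 ± 0.51, adjusted p = 0.00246) and Nqo1 (3.33 ± 0.25, adjusted p = 6.55e-06). In Nrf2 KO 1 of them, Nqo1, fell (-1.47, adjusted p = 0.0384), where 0.0564% of all genes fell, and the median was -0.85. In Nrf1 CKO 5 rose (7.99% of all genes), among them Gsta1 (1.70), Ephx1 (1.47) and Srxn1 (1.13). There 0 fell (10.9% of all genes), and the median was 0.27. No test compared this list with the proteasome genes.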

How the data were processed

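The values came from 18 single-colour Agilent mouse arrays of liver RNA (500 ng, Cy3, Isogen extraction, per the labels). Per the file headers, Agilent Feature Extraction (version 10.7.3.1) subtracted background from the deposited processed intensities and removed spatial trends, with no normalization between arrays. The values in the authors' series table equalled these intensities at all 810324 entries compared (relative tolerance 1e-06). The deposited median intensities of spot and background served for the normexp alternative only, and its flags (background, saturation, outliers) are other values set by that software, per the file headers.

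Control and outlier spots were left out, spots of a probe were averaged on the log2 scale, and log2 of the array's 75th percentile was subtracted. Probes were named through the transcript on the array and RefSeq gene names (64.9% of 41174 probes), kept where a whole group (3 arrays) was well above background, and the brightest probe of a gene was used. Of the 40 genes, 12 had several probes, and those of Psmg2 differed in sign in Nrf1 CKO. The fit used limma (version 3.58.1, R 4.3.3), with 6 group means over 18 arrays (12 residual and 3.07 prior degrees of freedom), with Benjamini-Hochberg adjustment over all 17721 genes and a threshold of 0.05. The script was tested on simulated data. There it called 89 of 100 genes changed by 2 on the log2 scale, 53 of 100 changed by 1, and 10 of the unchanged genes. A gene that was not called may therefore still have changed. Values of each array are given for up to 3 called genes of a role in Nrf1 CKO and 2 in other comparisons, for the gene with the change nearest 0 in each role, and for any that opposed its role's median at an unadjusted p under 0.05. Array values of Psmb5, Psmb6, Psmd11, Nfe2l2 and Keap1 in Nrf1 CKO, of Psmb5, Psme4, Pomp and Psmd9 in Nrf2 KO and of Psmd2 in Keap1 KD were added after being seen. Sequence motifs were searched as letters on both strands. One list of related genes is not reported here. The members and lists were chosen with earlier results of these data known. Alternatives changed scaling, background correction, filters, probe choice, weights, blocks and arrays. The number of arrays limits the precision.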

Additional observations from a re-analysis of the deposited data

Results flagged for a closer look

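The effect of Nrf1 CKO was below that of Nrf2 KO in 3 proteasome genes (2.57% of all genes tested), by the limma test of the difference between the effects. The differences on the log2 scale were -0.98 for Psma6, -0.91 for Psmd9 and -0.81 for Psma5. It was below that of Keap1 KD in 20 genes (3.36% of all genes tested). The differences were -1.14 for Psma5 and -0.96 for Psma6 in the alpha ring, -1.10 for Psmb5 and -0.99 for Psmb7 in the beta ring, and -1.10 for Psmc2 and -1.05 for Psmc1 among the ATPases. They were -1.19 for Psmd12 and -0.98 for Psmd2 among the non-ATPases, -1.13 for Pomp and -0.87 for Psmd5 among the chaperones and -0.93 for Psme4. Between Nrf2 KO and Keap1 KD, 1 gene differed, Psmb5, by -1.02. With slide as a block 0 genes differed in each of the 3 comparisons (0.0169%, 0.0282% and 0.113% of all genes lower). When the block was the scan date, 0, 2 and 0 did (0.502%, 0.863% and 0.305% of all genes lower). Outliers could not be looked for within groups of 3 arrays.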

How the results depend on the processing

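Without any 1 array, the number of genes lower in Nrf1 CKO ranged from 9 to 28 (2.47% to 13.8% of all genes tested). The number higher ranged from 0 to 1 (2.83% to 9.64% of all genes), and the number higher in Keap1 KD from 0 to 1 (0.53% to 1.11%). Genes whose effect in Nrf1 CKO was below that in Nrf2 KO numbered 0 to 12 (median -0.61 to -0.43, 0.542% to 6.67% of all genes). Those below that in Keap1 KD numbered 2 to 28 (median -0.93 to -0.73, 0.604% to 7.08%). For Nrf2 KO below Keap1 KD the number was 0 to 1 (0.457% to 0.937%). Quantile normalization left 11 genes lower in Nrf1 CKO (median -0.34, 7.08% of all genes tested). It left 1 and 2 in the differences of Nrf1 CKO from Nrf2 KO and Keap1 KD (medians -0.33 and -0.44, 2.55% and 1.73% of all genes) and a median of -0.11 between the latter. Normexp before quantile normalization left 16 lower and 1 higher in Nrf1 CKO (median -0.29, 7.91% and 9.23% of all genes). It left 7 in the difference from Keap1 KD (2.17% of all genes), and medians of -0.33, -0.42 and -0.11 in the 3 differences. The change of Psma2 in Nrf1 CKO turned to 0.02 and 0.07 under these settings. Scaling to the array median left 1 gene lower in Nrf1 CKO than in Nrf2 KO (1.28% of all genes). It gave medians of 0.51 in Keap1 KD and of -1.26 and -0.63 in the differences of Nrf1 CKO and Nrf2 KO from Keap1 KD. With no filter on background (32282 genes tested) 16 genes were lower in Nrf1 CKO (3.65% of all genes) and 0 higher in Keap1 KD (0.282%). In the 3 differences 0, 3 and 0 were lower (0.356%, 0.455% and 0.22% of all genes). With probes above background on all arrays, 7 differed between Nrf1 CKO and Nrf2 KO (4.44% of all genes lower) and 0 were higher in Keap1 KD (0.93%). An intensity trend raised the first of these to 8 (3.61% of all genes tested), and array weights to 22 (18% of all genes). Array weights left 1 gene higher in Nrf1 CKO (18.7% of all genes) and 0 in Keap1 KD (0.372%). The share of all genes lower in Nrf1 CKO than in Nrf2 KO thus moved with the setting, from 0.0169% with slide as a block to 18%. With slide as a block the counts were 0 in Nrf1 CKO (0.135% of all genes lower), in Keap1 KD (0.0508% higher) and in the 3 differences (0.0169%, 0.0282% and 0.113% lower). The median difference between Nrf1 CKO and Keap1 KD was then -0.73. With scan date as a block the differences had 0, 2 and 0 genes and Keap1 KD 0 (0.502%, 0.863%, 0.305% and 0.31% of all genes). With only the arrays of the lines compared the counts were 8, 1, 0 and 0 (5.32%, 0.525%, 0.547% and 0.102% of all genes). With a replicate block, 22 genes were lower in Nrf1 CKO (8.52% of all genes) and 0 higher in Keap1 KD (0.615%). In the differences 0, 9 and 0 were lower (1.53%, 2.13% and 0.485% of all genes). The replicate numbers share only a number: deviations of same-numbered arrays correlated at 0.127, 0.12 and -0.0173 in the Nrf1 line, -0.0764, -0.0508 and 0.0529 in the Nrf2 line and 0.1, -0.359 and 0.147 in the Keap1 line. Other counts kept within 1.5 times of those reported and other medians within 1 SD of the array medians (0.115). For the 24 genes picked by the naming rule for Nrf1 CKO, over all alternatives, 417 values kept their direction and side of the threshold, 75 kept the direction and lost the call, 6 gained a call, the 2 of Psma2 turned, and 3 of genes not called (Psmc4 and Psmg2) changed sign. The causes of these shifts were not tested. With 3 arrays a group, the median standard error of a change in Nrf1 CKO was 0.244.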
